A study of Mus musculus with 6 samples.

Results

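The genes described here mark the segments of the vascular tree in brain endothelium: 14 arterial, 6 capillary and 9 venous genes, 29 in all of the 53465 genes in the count table. They were taken by symbol from a list of zonation markers (Bmx to Pi16 arterial, Spock2 to Hmcn1 capillary, Nr2f2 to Flrt2 venous), each matched 1 Ensembl gene, and all 29 passed the filter on low counts that left 13768 genes for testing. RNA came from cortical endothelial cells of male mice, 8 to 12 weeks old. The mice had been injected with pentylenetetrazol (PTZ), which blocks GABA-A receptors and is used to induce seizures, or with phosphate buffered saline (PBS), with 3 libraries in each group, numbered 1, 2 and 4. Mice of both groups carried tie2-Cre, ai9 and rpl22HA/HA: a Cre recombinase driven by the Tie2 promoter, which is active in endothelium and in part of the blood lineage, a fluorescent reporter, and an HA-tagged ribosomal protein through which ribosomes of cells with Cre can be isolated. The series is titled a translatome, whereas its labels call the molecule total RNA and give neither the dose of PTZ, the time to collection nor the isolation step. Nothing in the labels says whether a library came from 1 animal or from several, so p-values refer to the spread among these libraries alone, and that spread may be technical.

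Brain endothelial cells change their expression gradually along the vessel from artery through capillary to vein. Arterial cells carry ephrin-B2 and proteins that build elastic walls, capillary cells carry transporters and the enzymes of exchange, and venous cells carry the receptor EphB4, the transcription factor NR2F2 and receptors that serve the entry of leukocytes. In bulk RNA a marker can be high because more cells of its segment were sampled or because each cell holds more of the RNA, and these cannot be told apart. Several members are also made outside the endothelium: elastic fibre genes (Eln, Fbln5, Ltbp4) by mural cells and fibroblasts, Pi16 by fibroblasts, Glul by astrocytes and Ctsc by microglia and macrophages.

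Total counts ran from 11691668 to 15406967 reads in PTZ libraries and from 11107481 to 14932860 reads in PBS libraries. Levels are CPM, counts per 1000000 reads in genes after scaling by the trimmed mean of M values (TMM), with the mean and SD of each group (n = 3), and values written PTZ over PBS or fold change are on the log2 scale, with their standard error (SE). All 12 general endothelial markers, Pecam1, Cldn5 and Cdh5 among them, were detected in every library, with a summed level of 14579 to 28335 CPM in PTZ and 15268 to 23227 CPM in PBS. Among genes that define other cell types, those of pericytes and smooth muscle summed to 862 to 1622 CPM in PTZ and 505 to 921 CPM in PBS, and those of microglia and macrophages to 1986 to 2968 CPM in PTZ and 2881 to 3490 CPM in PBS. Of the pericyte and smooth muscle sum, Mylk alone held 363 to 468 CPM in PTZ and 288 to 423 CPM in PBS. Astrocyte markers summed to 69.3 to 194 CPM in PTZ and 57.7 to 144 CPM in PBS. The share of reads assigned to no feature was 9.34% in PTZ library 1 and 2.99% to 5.19% elsewhere. The sources used here do not say whether counting used strand, and 10 members share exon bases with a gene on the opposite strand (Eln, Glul, Azin1, Pi16, Ivns1abp, Hmcn1, Nr2f2, Ephb4, Adgrg6 and Tshz2), so reads of such a pair may not have been told apart. Ackr1 shares exon bases with Cadm3 on the same strand.

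Of the 29 zonation markers none was called higher or lower in PTZ at an adjusted p under 0.05 in edgeR's quasi-likelihood test, where 0% of all genes tested were called in either direction, and the smallest adjusted p of a member was 0.625. DESeq2 called 0.385% of genes higher and 0.167% lower at that threshold and 0 of the 29 members. At an unadjusted p under 0.05 in edgeR 1 member was higher, the capillary gene Rgcc, and 0 were lower, beside 3.83% and 3.38% of all genes. The 3 PTZ values exceeded the 3 PBS values for 2 members, Rgcc and the venous gene Il1r1, beside 7.3% of all genes, and 0 members had all PTZ libraries below all PBS libraries, beside 7.04%. The SE of a member's log2 fold change in this edgeR fit, which does not pair libraries of equal number, ran from 0.20 to 1.03. It holds the spread between numbers as well, and bears on the size of change that this fit could resolve.

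**Figure D1:**
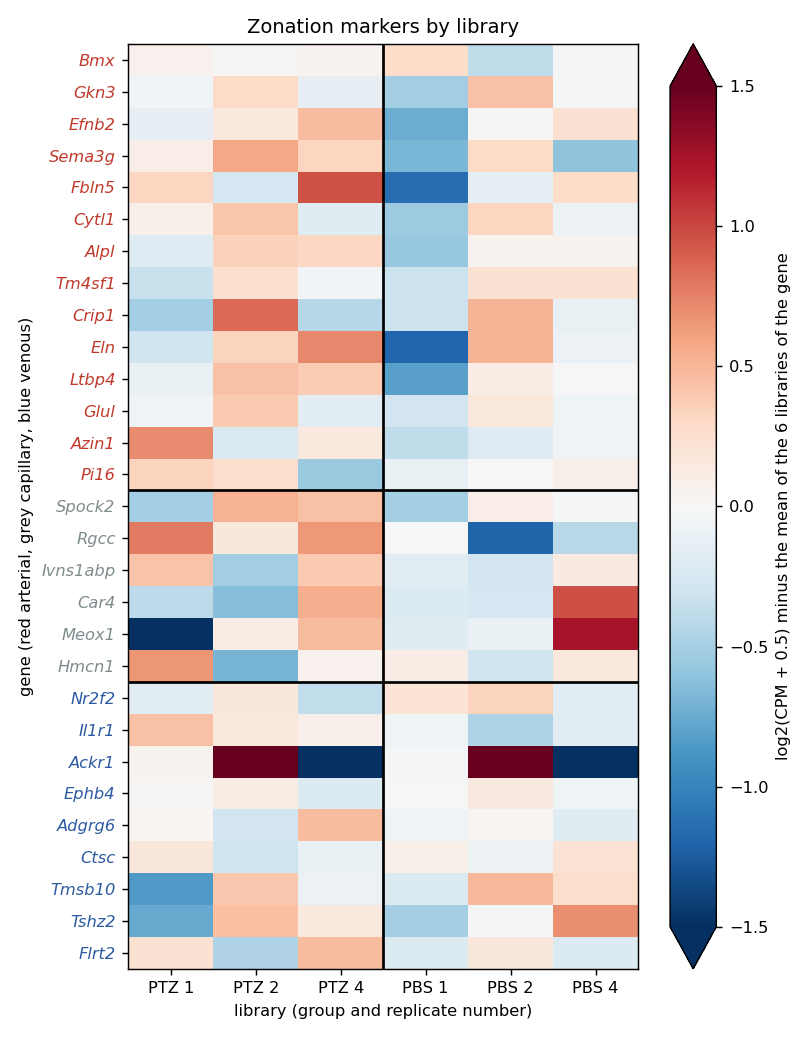
Level of each of the 29 markers (rows, arterial above capillary above venous) in each of the 6 libraries (columns, PTZ left of PBS), as log2(CPM + 0.5) minus the mean of the gene over the libraries; colours end at 1.5 in either direction. Ackr1 is high in both libraries numbered 2 and low in both numbered 4, and Rgcc is higher in the 3 PTZ libraries. Of the 14 arterial genes 10 are lowest in PBS library 1 (share of all genes not counted).

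Promoters are shown for the members whose PTZ and PBS libraries did not overlap, Rgcc and Il1r1. Each is the 250 bases before the start of the gene's RefSeq transcript (GRCm38.p6), 5′ to 3′ on the strand of the gene. Rgcc lies at chr14:79301636-79301885 on the minus strand and Il1r1 at chr1:40224830-40225079 on the plus strand (the first of 2 starts in the table). The last 10 bases of the Rgcc window lie inside the gene as GENCODE draws it, and the Il1r1 window ends at the base before its gene. Capitals mark matches, on either strand, to any of 3 words: TGGGAA, the core bound by RBPJ, the DNA-binding partner of Notch; GGAAGT, a word bound by ETS factors; and AGGTCA, a core word bound by nuclear receptors such as NR2F2. The RBPJ and ETS words share the letters GGAA and can overlap, which they do in neither window.
Rgcc: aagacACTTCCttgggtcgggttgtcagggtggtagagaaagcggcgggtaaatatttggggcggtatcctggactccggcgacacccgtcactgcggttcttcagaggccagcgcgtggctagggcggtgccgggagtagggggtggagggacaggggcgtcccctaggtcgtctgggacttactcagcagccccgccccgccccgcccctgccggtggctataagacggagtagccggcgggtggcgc
Il1r1: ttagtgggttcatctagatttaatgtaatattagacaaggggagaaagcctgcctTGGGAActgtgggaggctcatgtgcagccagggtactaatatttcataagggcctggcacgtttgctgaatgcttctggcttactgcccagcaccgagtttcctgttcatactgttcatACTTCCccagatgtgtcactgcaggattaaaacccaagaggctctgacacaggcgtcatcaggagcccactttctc
The Rgcc window holds the ETS word on the opposite strand (ACTTCC), and the Il1r1 window holds the RBPJ word and, on the opposite strand, the ETS word. The Rgcc window is richer in G and C, 66.8% with 22 CG pairs, than that of Il1r1 (48.4%, 3). Windows were found for 26 of the 29 members, 34 windows in all. RefSeq starts can lie inside the gene as GENCODE draws it: 17 of the 34 windows share bases with their own gene, that of Ackr1 with 247 bases among them, and 10 lie wholly inside it. The RBPJ word stood in a window of 7 of the 26 (26.9%) and of 24.1% of all 27025 genes with a window, the ETS word in 7 (26.9%) and 22.2%, and the nuclear receptor word in 4 (15.4%) and 15.8%. By segment the RBPJ word stood in 3 of 12 arterial, 1 of 5 capillary and 3 of 9 venous members, the ETS word in 2, 1 and 4, and the nuclear receptor word in 2, 1 and 1. These are matches of letters and not sites of binding, and over all 26 members the shares lie near those of all genes.

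Arterial genes had mostly positive fold changes, none of them called. Of the 14, 13 had a positive log2 fold change, beside 52.7% of all genes, and the median was 0.24, beside 0.03 for all genes tested. Of 12 general endothelial markers 8 had a positive value, with a median of 0.15, so positive values were not particular to arterial genes. No arterial gene had groups that did not overlap. PBS library 1 was the lowest of the 6 for 10 of the 14 genes, and how many of all genes were lowest there was not counted. In that library arterial genes lay at a median of -0.53 from their mean over the libraries in log2(CPM + 0.5). General endothelial markers lay at -0.32 and all genes tested at 0.02. The median arterial log2 fold change was 0.06 without PBS library 1 and 0.10 without PTZ library 2. The summed arterial level was 8800 (library 1), 12303 (2) and 9554 (4) CPM in PTZ and 6991, 11839.5 and 9857 CPM in PBS, so PTZ libraries 1 and 4 lay below PBS libraries 2 and 4.

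The arterial genes with the smallest p were Sema3g, Azin1 and Fbln5. Sema3g (ENSMUSG00000021904, chromosome 14, 31217860 to 31230352, plus strand, GRCm38) encodes a secreted semaphorin of arterial endothelium. It stood at 229.3, 321.8 and 268.6 CPM in PTZ libraries 1, 2 and 4 and at 133.3, 263.9 and 140.8 CPM in PBS, which gives 273 ± 46.4 CPM in PTZ and 179 ± 73.3 CPM in PBS. PBS library 2 reached into the PTZ range, and within each pair of equal number PTZ was higher, by 0.78, 0.29 and 0.93 on the log2 scale. The log2 fold change was 0.61 (SE 0.29), with an adjusted p of 0.700 in edgeR. Azin1, an inhibitor of antizyme in polyamine metabolism, stood at 211.5, 109.9 and 143.2 CPM in PTZ and at 99.5, 112.8 and 124.3 CPM in PBS (PTZ over PBS 0.47, SE 0.26). PTZ library 1 was the high one, and PTZ library 2 lay within the PBS range.

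Genes of the elastic wall had positive values of similar size. Fbln5, whose protein helps to assemble elastic fibres, stood at 218.6, 144.4 and 337.2 CPM in PTZ and at 78.4, 157.5 and 211.7 CPM in PBS (PTZ over PBS 0.65, SE 0.39, adjusted p 0.748 in edgeR). The groups overlapped, with PTZ library 4 highest and PBS library 1 lowest. Eln, which encodes tropoelastin, averaged 226 ± 75.9 CPM in PTZ and 169.9 ± 89.9 CPM in PBS (PTZ over PBS 0.41, SE 0.40), and Ltbp4, which binds latent TGF-beta and elastic fibres, 965 ± 192 CPM and 712 ± 222 CPM (0.44, SE 0.31). Of 12 tested pericyte and smooth muscle markers 12 had a positive value, with a median of 1.23. In edgeR 5 of them were higher at an unadjusted p under 0.05, beside 3.83% of all genes, and none at an adjusted p under 0.05. DESeq2 called 1 of them higher, the pericyte gene Higd1b (adjusted p 0.0136). Acta2 and Myh11, which define smooth muscle, stood at 172 to 441 CPM and 56.1 to 180.1 CPM in PTZ and at 44.4 to 232 CPM and 15.6 to 82.4 CPM in PBS. Of 8 tested fibroblast markers 8 had a positive value with a median of 1.23. In edgeR 3 of them (Dcn, Col1a1 and Col1a2) were higher at an unadjusted p under 0.05, beside the same 3.83%, and none at an adjusted p under 0.05. The collagen genes Col1a1, 5.12-fold higher in PTZ, and Col1a2, 3.22-fold higher and without overlap of the groups, were called by DESeq2 (adjusted p 0.0343 and 0.0203), which called none of the 29 zonation markers. These genes were named after their values were seen. From their means over the libraries, in log2(CPM + 0.5), pericyte and smooth muscle markers lay at a median of 1.32, -0.12 and 0.55 in PTZ libraries 1, 2 and 4. In PBS they lay at -0.63, -0.48 and -0.11. Fibroblast markers lay at 1.14, -0.43 and 1.14 in PTZ and at -0.62, -0.57 and -0.14 in PBS. PTZ library 2 thus lay within the PBS range for both lists. The fibroblast list summed to 900.1 to 2107 CPM in PTZ and 941 to 1371 CPM in PBS, most of it Mgp, an inhibitor of calcification that arterial endothelium also makes, and the fibroblast gene Dpt had 0 or 1 read in each library. The part of these cells in the levels of Fbln5, Eln, Ltbp4 and Pi16 was not tested, nor was that of astrocytes in the level of Glul.

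Of the classic arterial genes, Gkn3 and Bmx had fold changes near 0 and Efnb2 a positive one. Gkn3 (ENSMUSG00000030048, chromosome 6, 87383256 to 87388935, minus strand), a gastrokine known in brain as a marker of arterial endothelium, was the highest of all 29 members per length, with 3559 CPM per kilobase of exon in PTZ and 3474 in PBS. It stood at 2857, 3585 and 2697 CPM in PTZ and at 2043, 3977 and 2902 CPM in PBS, highest in library 2 of both groups (log2 fold change 0.03, SE 0.34). Bmx, a cytoplasmic tyrosine kinase, stood at 134.6, 129.8 and 132.6 CPM in PTZ and at 155.4, 98.3 and 126.4 CPM in PBS (PTZ over PBS 0.06, SE 0.22), so the PTZ libraries all lay inside the PBS range. Efnb2, the ligand ephrin-B2, was low, at 12.3, 15.1 and 18.7 CPM in PTZ and 7.81, 13.6 and 15.9 CPM in PBS (PTZ over PBS 0.31, SE 0.39), with overlapping groups. The sign for Gkn3 and Bmx turned negative under the authors' scaling (-0.03 and -0.02).

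The other arterial members had fold changes between -0.10 and 0.30. Alpl, the tissue-nonspecific alkaline phosphatase, averaged 227 ± 44.1 CPM in PTZ and 184 ± 42.3 CPM in PBS (PTZ over PBS 0.30, SE 0.25). The secreted factor Cytl1 averaged 749.9 ± 159 CPM and 659 ± 193 CPM (0.19, SE 0.30), glutamine synthetase Glul 669 ± 139 CPM and 610.3 ± 95.5 CPM (0.13, SE 0.26) and the peptidase inhibitor Pi16 59.4 ± 18.4 CPM and 56.2 ± 3.76 CPM (0.08, SE 0.27). The LIM protein Crip1 averaged 929.9 ± 537 CPM in PTZ and 904 ± 286 CPM in PBS (PTZ over PBS 0.04, SE 0.40), and the membrane protein Tm4sf1, the 1 arterial member with a negative value, 2538 ± 499 CPM and 2713 ± 554 CPM (-0.10, SE 0.31). For each of these genes the groups overlapped.

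**Figure D2:**
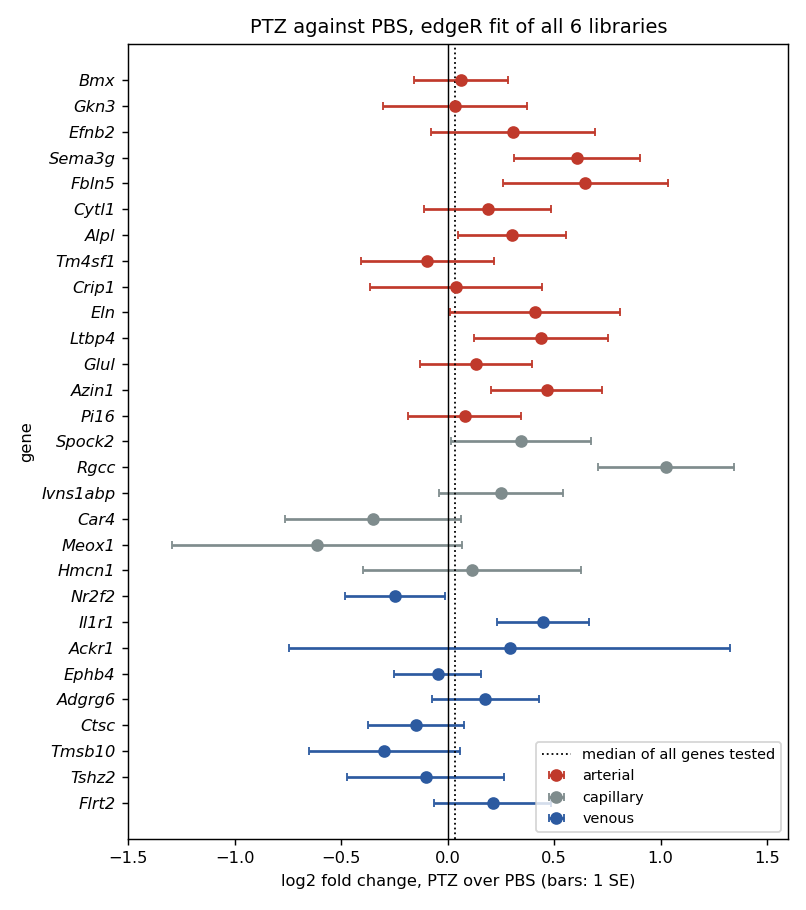
Log2 fold change of PTZ over PBS for each marker from the edgeR fit of all 6 libraries, with bars of 1 SE; colours give the segment and the dotted line is the median of all genes tested (0.03). Arterial genes lie mostly right of 0, Rgcc stands at 1.02, and Ackr1 has the widest bar (SE 1.03).

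Capillary genes went in both directions, with 4 positive and 2 negative values and a median of 0.18, which was -0.04 without PTZ library 1 and 0.03 without PBS library 2. Rgcc (ENSMUSG00000022018, chromosome 14, 79288756 to 79301645, minus strand), a regulator of the cell cycle induced by complement, was the member with the largest difference. It stood at 83.0, 54.2 and 75.9 CPM in PTZ libraries 1, 2 and 4 and at 48.3, 20.6 and 35.7 CPM in PBS, or 71.0 ± 15.01 CPM in PTZ and 34.9 ± 13.8 CPM in PBS. Every PTZ library lay above every PBS library, and within pairs of equal number PTZ was higher by 0.78, 1.37 and 1.08 on the log2 scale. The log2 fold change was 1.02 (SE 0.32), a 2.03-fold higher level in PTZ, with an unadjusted p of 0.00913 and an adjusted p of 0.625 in edgeR, so it did not pass over all genes tested. With the replicate number as a block edgeR gave an adjusted p of 0.235. DESeq2 with that block, a fit added after seeing the data, called 0.963% of genes higher and 0.57% lower and gave Rgcc an adjusted p of 0.00873, the smallest in a range of 0.00873 to 0.9998 over the alternatives.

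The 2 most abundant capillary genes had values of opposite sign. Spock2, the proteoglycan testican-2, stood at 636, 1302 and 1229.7 CPM in PTZ and at 638, 970.2 and 890.3 CPM in PBS (PTZ over PBS 0.34, SE 0.33). Library 1 was low in both groups, and PTZ libraries 2 and 4 were the highest. Car4 (ENSMUSG00000000805, chromosome 11, 84957786 to 84966044, plus strand), a carbonic anhydrase on the cell surface and the highest capillary member per length, stood at 404, 343 and 776 CPM in PTZ and at 461, 442 and 1039 CPM in PBS. Library 4 was the highest in both groups, and within each pair PTZ was the lower one, at -0.19, -0.36 and -0.42 on the log2 scale. Its log2 fold change was -0.35 (SE 0.41, adjusted p 0.879 in edgeR) and 0.14 without PBS library 4. The homeobox gene Meox1 was near the lower end of the range, at 1.68, 6.35 and 8.32 CPM in PTZ and 5.12, 5.43 and 14.5 CPM in PBS (PTZ over PBS -0.61, SE 0.68), with overlapping groups and 23 reads in PTZ library 1. Its sign also turned without PBS library 4 (0.03). The kelch protein gene Ivns1abp averaged 48.0 ± 15.9 CPM in PTZ and 40.3 ± 6.24 CPM in PBS (PTZ over PBS 0.25, SE 0.29), and Hmcn1, an extracellular matrix protein and the lowest member per length, 7.88 ± 3.77 CPM and 7.29 ± 1.27 CPM (0.11, SE 0.51).

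Venous genes showed no common direction, with 4 positive and 5 negative values and a median of -0.05. The median ran from -0.16 without PTZ library 2 to 0.16 without PTZ library 1. Il1r1 (ENSMUSG00000026072, chromosome 1, 40225080 to 40317257, plus strand), the signalling receptor for interleukin-1, stood at 265, 219 and 206 CPM in PTZ libraries 1, 2 and 4 and at 188, 142 and 175 CPM in PBS, or 229.9 ± 31.2 CPM and 168 ± 23.5 CPM. The groups did not overlap. The log2 fold change was 0.45 (SE 0.22), with an unadjusted p of 0.0637 and an adjusted p of 0.700 in edgeR. Nr2f2, the transcription factor that maintains venous identity, stood at 67.6, 85.9 and 58.6 CPM in PTZ and at 88.1, 95.8 and 67.7 CPM in PBS (PTZ over PBS -0.25, SE 0.23), with PTZ lower in each pair although the groups overlapped. Tmsb10, a small protein that binds actin monomers, stood at 608, 1443 and 1025 CPM in PTZ and at 939, 1533 and 1308 CPM in PBS (PTZ over PBS -0.30, SE 0.35), again lower in each pair with overlapping groups.

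The receptor of ephrin-B2 was the steadiest member. Ephb4 stood at 75.2, 79.8 and 64.5 CPM in PTZ and at 74.2, 81.7 and 70.8 CPM in PBS, with a 1.27-fold range over the 6 libraries (log2 fold change -0.05, SE 0.20), and it had the smallest SE of the 29. Per length Ephb4, with 15.8 CPM per kilobase in PTZ and 16.3 in PBS, stood above its ligand Efnb2, with 2.24 in PTZ and 1.81 in PBS. Ctsc, a lysosomal protease, averaged 279 ± 45.7 CPM in PTZ and 309 ± 30.9 CPM in PBS (PTZ over PBS -0.15, SE 0.22), and the zinc finger gene Tshz2 63.3 ± 24.7 CPM and 68.0 ± 29.3 CPM (-0.10, SE 0.37). The adhesion receptor gene Adgrg6 averaged 49.4 ± 13.2 CPM in PTZ and 43.7 ± 3.23 CPM in PBS (PTZ over PBS 0.18, SE 0.25) and Flrt2, a membrane protein with leucine-rich repeats, 54.8 ± 16.7 CPM and 47.4 ± 7.48 CPM (0.21, SE 0.27). Of 12 microglia and macrophage markers 10 had a negative value (median -0.26). At an unadjusted p under 0.05 in edgeR 2 were lower, Tmem119 and Aif1, beside 3.38% of all genes, and 0 at an adjusted p under 0.05. Aif1 and C1qb had all PTZ libraries below all PBS libraries, beside 7.04% of all genes. They were named after their values were seen. The part of microglia and macrophages in the level of Ctsc was not tested.

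Ackr1 (ENSMUSG00000037872, chromosome 1, 173331886 to 173333750, minus strand), an atypical chemokine receptor that marks venules and binds chemokines without signalling, varied most of all members and did so between replicate numbers. It stood at 766, 3651 and 142 CPM in PTZ libraries 1, 2 and 4 and at 732, 2795 and 201 CPM in PBS. Within equal numbers PTZ over PBS was 0.07, 0.39 and -0.50 on the log2 scale, whereas the highest library was 25.7-fold above the lowest. The log2 fold change was 0.29 (SE 1.03), and it was -1.504 without PTZ library 2 and 1.68 without PBS library 2. Ackr1 alone made up 62.2% of the summed venous level in PTZ library 2 and 54.9% in PBS library 2. Without it the venous sum was 1485, 2223 and 1828 CPM in PTZ and 1729, 2293 and 2145 CPM in PBS. Library 2 thus stayed the highest in each group, but this order rests largely on Tmsb10. That gene alone held 1443 CPM of the remainder in PTZ library 2 and 1533 CPM in PBS library 2. Ctsc was instead lowest in library 2 of each group. The median deviation of all 9 venous members from their means, in log2(CPM + 0.5), was highest in library 2. It was 0.03, 0.16 and -0.09 in PTZ and -0.06, 0.14 and -0.16 in PBS. Other venular adhesion genes, named after their values were seen, were also high in library 2: Vcam1 stood at 532, 808 and 319 CPM in PTZ and 369.8, 1881 and 324 CPM in PBS, and Icam1 at 147, 346 and 42.3 CPM in PTZ and 44.8, 653 and 44.1 CPM in PBS.

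**Figure D3:**
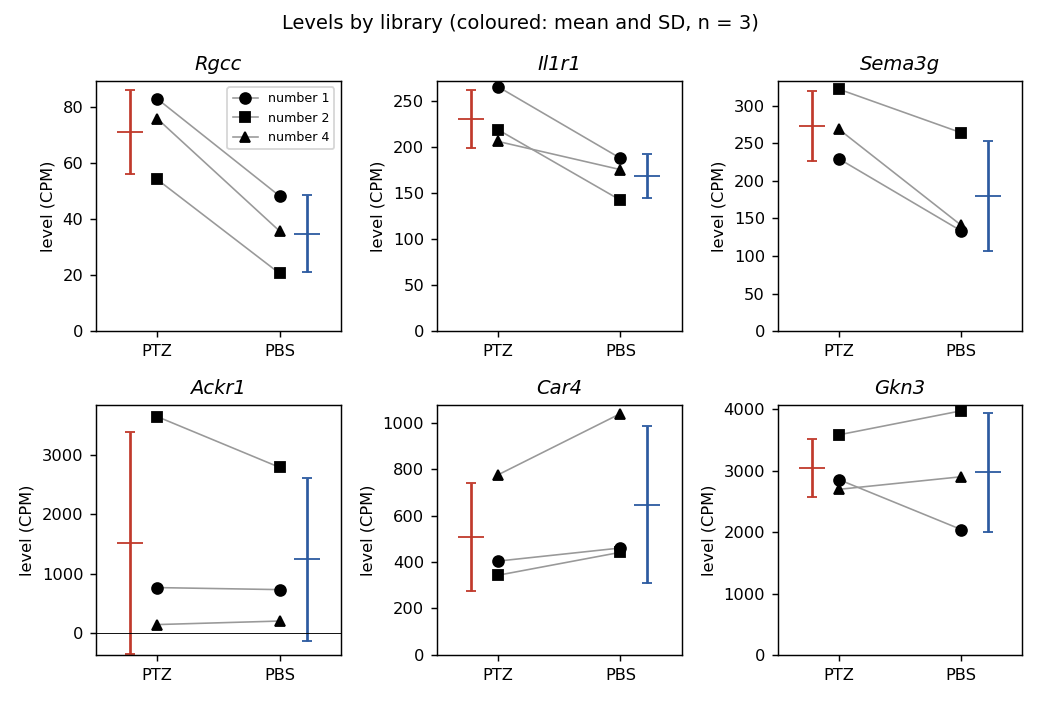
Levels in CPM of 6 markers in PTZ (left) and PBS (right) libraries, with lines joining libraries of equal replicate number and coloured marks for the mean and SD (n = 3). Rgcc and Il1r1 lie higher in every PTZ library, Ackr1 and Car4 have the same order of replicate numbers in both groups, and Ackr1 reaches 3651 CPM in PTZ and 2795 CPM in PBS in libraries numbered 2.

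The zonation markers differed more between replicate numbers than between PTZ and PBS. For each gene the variance of log2(CPM + 0.5) over the 6 libraries was split into a part between groups, a part between numbers and the rest. For the 29 members the median part was 10.5% between PTZ and PBS and 70.3% between numbers, and for all genes tested it was 15.8% and 44.9%. The part between numbers was the larger one for 25 of the 29 members, beside 69.2% of all genes. Counting noise is smaller at high levels, so the comparison was repeated at a mean of at least 50 CPM, where 24 members had median parts of 11.8% and 70.7% and all 3825 genes 21.1% and 47.5%, and the part between numbers was the larger one for 20 of the 24 members, beside 66% of the genes. The numbers have 2 degrees of freedom and the groups 1, which favours the numbers for every gene alike.

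Which number was high varied among the members. Both libraries numbered 2 were the highest of the 6 for 7 of the 29 members, beside 11.3% of all genes: Gkn3, Cytl1, Crip1 and Glul among arterial and Ackr1, Ephb4 and Tmsb10 among venous genes. All 7 averaged at least 50 CPM, and among genes at that level they are 7 of 24 members, beside 19.1% of 3825 genes. For the capillary genes Ivns1abp and Hmcn1 both libraries numbered 2 were instead the lowest, beside 10.2% of all genes (0 of 24 members, beside 9.12%, at that level). Both libraries numbered 4 were the highest for Efnb2, Car4 and Meox1, beside 8.64% of all genes (1 of 24 members, beside 8.52%, at that level). They were the lowest for Ackr1 and Ephb4, beside 6.94% (2 of 24 members, beside 5.57%). Both libraries numbered 1 were the lowest for 9 members, beside 8.19% (7 of 24 members, beside 9.36%, at that level), and the highest for Bmx, beside 7.26% (1 of 24 members, beside 4.21%). The summed capillary level followed another order than the venous one, with 1195, 1739.9 and 2153 CPM in PTZ libraries 1, 2 and 4 and 1198, 1479 and 2035 CPM in PBS, against 2251, 5874 and 1969.9 CPM in PTZ and 2461, 5088 and 2346 CPM in PBS for venous genes. Spock2 alone made up 53.2% to 74.8% of the capillary sum, except in PBS library 4, where Car4 made up 51.1%. The median deviation of capillary members from their means over the libraries, in log2(CPM + 0.5), was instead lowest in library 2. It was 0.015, -0.21 and 0.45 in PTZ and -0.17, -0.27 and 0.15 in PBS. What the numbers stand for (a litter, a day or a preparation) is not given in the labels, and the summed level of general endothelial markers was also highest in library 2, at 14579, 28335 and 16712 CPM in PTZ and 15268, 23227 and 17510.3 CPM in PBS, as was the arterial sum. Slc2a1 and Ly6c1 held most of that endothelial sum in library 2, at 8525 and 8504 CPM in PTZ and 6210 and 7306 CPM in PBS. In PTZ Pecam1, Cdh5 and Eng were highest in library 4 and the other endothelial markers in library 2. In PBS Pecam1, Cdh5 and Eng were highest in library 2, and Emcn and Esam in library 4. The sum of blood markers, most of it from globin genes, was likewise highest in library 2. It stood at 5925, 12030 and 6311 CPM in PTZ and 7008, 11297 and 7549 CPM in PBS. Not every blood marker followed the sum. The platelet gene Ppbp was lowest in library 2 of each group, at 52.6, 30.5 and 34.7 CPM in PTZ and 57.1, 47.9 and 55.4 CPM in PBS. The part of blood cells in these levels was not tested.

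**Figure D4:**
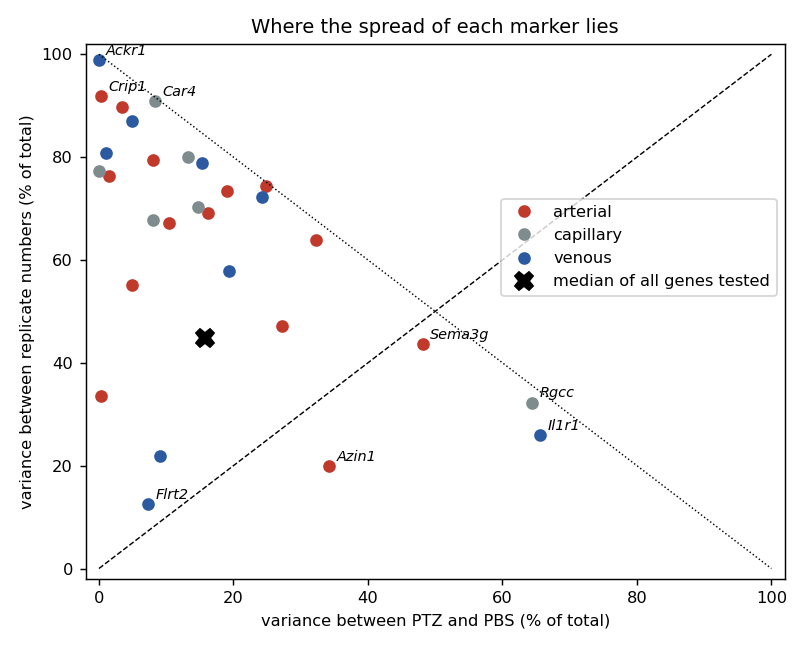
Percentage of each marker's variance in log2(CPM + 0.5) that lies between PTZ and PBS (horizontal) and between replicate numbers (vertical); the dashed line marks equal parts, the dotted line their sum of 100, and the cross the median of all genes tested (15.8% and 44.9%). Of the 29 markers 25 lie above the dashed line, with Ackr1 at 98.9% between numbers, and Rgcc, Il1r1, Sema3g and Azin1 lie below it.

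PTZ and PBS were also compared within equal numbers. PTZ was higher in every pair for 6 members, beside 18.5% of all genes: Efnb2, Sema3g, Alpl and Ltbp4 among arterial genes, Rgcc and Il1r1. It was lower in every pair for 3, beside 16.6%: Car4, Nr2f2 and Tmsb10. With the number as a block in edgeR 5 members were higher at an unadjusted p under 0.05, beside 5.59% of all genes, and 0 lower, beside 5.31%. Their unadjusted p in edgeR was 0.000682 for Rgcc, 0.00702 for Sema3g, 0.0313 for Il1r1, 0.0321 for Ltbp4 and 0.0381 for Fbln5. None passed when adjusted over all genes, with 0.235 as the smallest adjusted p.

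Other genes of arterial, capillary and venous cells, from a list of 47 that are no members, were set beside these. Of 20 tested arterial genes 16 had a positive value with a median of 0.23. The gap junction gene Gja4 stood at 274, 512 and 326 CPM in PTZ and at 72.9, 195 and 258 CPM in PBS (PTZ over PBS 1.08, SE 0.42, adjusted p 0.664 in edgeR), again without overlap of the groups. The endothelial Notch receptor gene Notch4 stood at 101, 151 and 72.3 CPM in PTZ and at 58.6, 82.5 and 46.6 CPM in PBS (PTZ over PBS 0.79, SE 0.31, adjusted p 0.668), with overlapping groups. Of 10 capillary genes 4 were positive and 6 negative (median -0.03), and Tfrc, the transferrin receptor, had its 3 PTZ values below its 3 PBS values, at 39.1, 29.98 and 18.1 CPM in PTZ and 60.6, 66.4 and 49.0 CPM in PBS (PTZ over PBS -1.02, SE 0.30, adjusted p 0.601). Of 14 tested venous genes 9 were positive (median 0.12), and Ackr3, a scavenger receptor of chemokines, was near the detection limit with 20, 21 and 63 reads in PTZ and 14, 2 and 3 reads in PBS. Groups without overlap were not limited to Gja4 and Tfrc in these lists. PTZ was the higher group for 3 arterial (Gja4, Hey1 and Edn1), 1 capillary (Mfsd2a) and 2 venous genes (Il6st and Ackr3). It was the lower group for 0 arterial genes, 1 capillary gene (Tfrc) and 1 venous gene (Slc38a5). Among all genes tested the shares were 7.3% and 7.04%. No gene of these lists passed in edgeR over all genes tested.

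**Figure D5:**
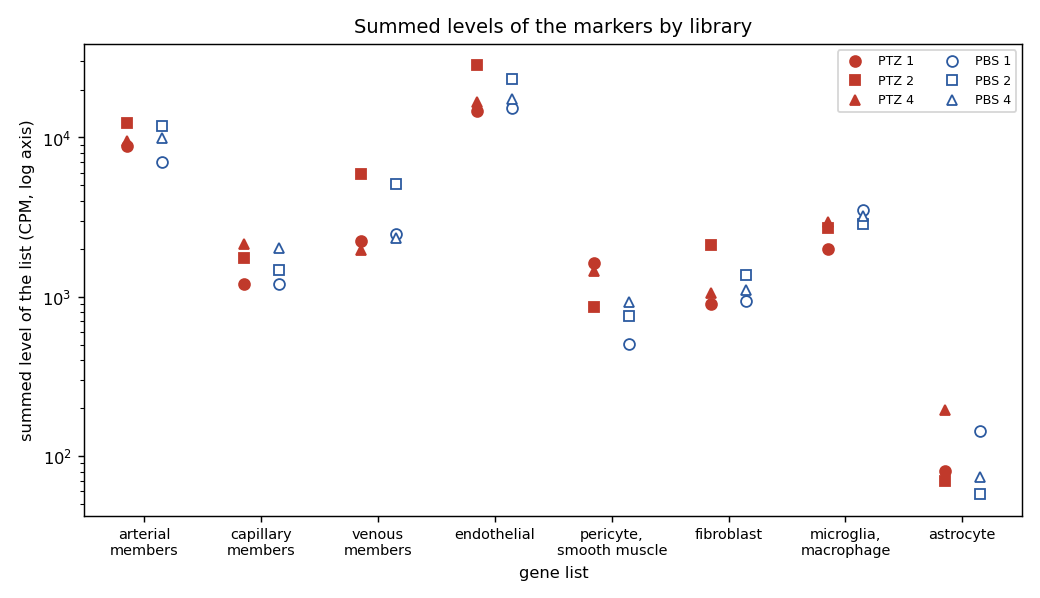
Summed level in CPM (log axis) of the arterial, capillary and venous markers and of marker lists of other cells in each library, PTZ filled and left, PBS open and right; marker shapes give the replicate number. Venous markers are highest in both libraries numbered 2 (5874 CPM in PTZ and 5088 CPM in PBS), and pericyte and smooth muscle markers are highest in PTZ libraries 1 and 4 (1622 and 1445 CPM).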

How the data were processed

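The authors deposited raw read counts per Ensembl gene for 3 PTZ and 3 PBS libraries and, per library, a scaled signal. Each deposited signal value is the count divided by 1 factor per library (within 0.01 reads), used here only as another scaling. Per the submitters' processing notes CASAVA, TopHat2 2.1.1, HTSeq, edgeR and GRCm38 were used, with no role or order given. The sources used here name neither an annotation release nor a strand setting. The 5 summary rows that name no gene, 16.1% to 22.9% of reads, stayed out of all steps.

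Symbols, positions and exon lengths came from GENCODE M21 (GRCm38), and promoters from RefSeq (GRCm38.p6). With R 4.3.3, genes passed filterByExpr (min.count 10, min.total.count 15), were scaled by TMM and tested with edgeR 4.0.16 (glmQLFit, glmQLFTest; group as factor; 2-sided; Benjamini-Hochberg over 13768 genes; threshold 0.05). DESeq2 1.42.0, limma 3.58.1 (voom), other scalings and filters, and leaving out each library were alternatives. The test was tried on simulated counts, and no outcome of that trial is given here. Deviations from the group means correlated across genes at 0.191, 0.238 and 0.246 between libraries of equal number, each over 0.1. On that ground the numbers from the sample titles were taken to pair the libraries. The pairing entered the comparisons within equal numbers and the fits with the replicate block. The main edgeR test had no block, so its SE and p-values do not use the pairing. Every 2 libraries of a group differed by more than sampling noise. All members were named. Values in every library were given for the 3 of each segment with the smallest p, the highest per length and 8 classic genes. Other zonation genes were named at an unadjusted p under 0.05 or where the groups did not overlap. The members and lists were chosen with earlier results of these data known. The split of variance and the ranks by replicate number were chosen after the data were seen.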

Additional observations from a re-analysis of the deposited data

How the results depend on the processing

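The 7 summary results and the log2 fold changes of the 29 members were recomputed under 14 alternatives and under DESeq2 with the replicate block, which was added after seeing the data. In edgeR 0 genes were called in either direction. Without the filter on low counts edgeR called 77 genes higher and 44 lower, DESeq2 called 53 and 23, limma-voom 1 higher and DESeq2 with the replicate block 130 higher and 77 lower, of which 1 was a member, Rgcc. Without single libraries 0 to 8 genes were called higher, the 8 without PBS library 2, and 0 lower. The arterial median ranged from 0.06 to 0.36 without single libraries, the capillary one from -0.04 to 0.26 and the venous one from -0.16 to 0.16. With the replicate number as a block in edgeR 0 genes and 0 members were called, and the arterial, capillary and venous medians were 0.26, 0.11 and -0.05, so the pairing changed no call in edgeR. The sign of Crip1 turned under the authors' scaling (-0.0346), without the low-count filter (-0.0140), in limma-voom (-0.0512), with the replicate block (-0.0595) and in DESeq2 with that block (-0.0677). The sign of Ackr1 turned with the block in edgeR (-0.0156) and in DESeq2 (-0.0234), that of Gkn3 under the authors' scaling (-0.0292) and without the filter (-0.0110), and that of Bmx under the authors' scaling (-0.0152). Leaving out single libraries turned the sign of 14 members, whose log2 fold changes then ranged as follows: Bmx -0.12 to 0.23, Gkn3 -0.18 to 0.27, Cytl1 -0.0271 to 0.39, Tm4sf1 -0.29 to 0.0366, Crip1 -0.58 to 0.30, Glul -0.0897 to 0.23, Pi16 -0.0777 to 0.31, Car4 -0.80 to 0.14, Meox1 -1.07 to 0.0263, Hmcn1 -0.29 to 0.36, Ackr1 -1.504 to 1.68, Ephb4 -0.16 to 0.0319, Adgrg6 -0.0543 to 0.30 and Tshz2 -0.41 to 0.26. The cause of these changes was not tested. The other 15 members, Rgcc (0.72 to 1.33), Il1r1 (0.31 to 0.53) and Sema3g (0.43 to 0.96) among them, kept their sign under every alternative run. The counts of Meox1, Hmcn1 and Efnb2, the members with the lowest levels, limit what can be read from them.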
